A study of Mus musculus with 6 samples.

Results

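Eicosanoids are signaling lipids made from arachidonic acid, and the data were examined for 10 genes that make them, out of 29374 genes with any sequencing read. The 10 were taken by name as the enzymes of the leukotriene branch (Alox5, its helper protein Alox5ap, Lta4h and Ltc4s), the other lipoxygenases of blood cells (Alox12 and Alox15) and the prostanoid branch (Ptgs1, Ptgs2, Hpgds and Ptges), by a list of names that was drawn up with earlier results of these data known. RNA was compared between 3 Rpl22+/+ and 3 Rpl22-/- libraries of CD11b+Gr1+ cells sorted from the spleens of diseased mice. All of the mice carried an Mll-AF9 knockin allele, a fusion oncogene that causes acute myeloid leukemia, on a C57BL/6 background, and the Rpl22-/- mice also lacked Rpl22, a protein of the large ribosomal subunit. The study describes the leukemia explants by 1 mouse per genotype, and the sources used here do not say if each library had an animal of its own. The methods give young adult mice for the study in general, with sacrifice of Mll-AF9 mice on symptoms of disease, and no age for these libraries. The p-values therefore measure the spread between libraries, which may be technical.

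In a myeloid cell, phospholipases release arachidonic acid from membranes, and the acid is then taken by lipoxygenases or by cyclooxygenases. 5-lipoxygenase, which Alox5 encodes, works with the membrane protein FLAP, which Alox5ap encodes, to make leukotriene A4, from which Lta4h makes leukotriene B4, a neutrophil attractant, and Ltc4s makes leukotriene C4, a product of mast cells, basophils and eosinophils. The cyclooxygenases Ptgs1, which is made continuously in many cells, and Ptgs2, which is induced, make prostaglandin H2, which Ptges turns into prostaglandin E2 and Hpgds into prostaglandin D2. Neutrophils are known for the leukotriene B4 route.

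The libraries held 35828500 to 102866127 estimated reads. Rpl22 itself was lower in Rpl22-/- (234 to 326 TPM, an abundance scaled for transcript length to a common total, against 596 to 730 TPM) but was not absent, and which part of the gene is deleted was not given in the sources used here. Rpl22+/+ replicate 2 stood apart from the other Rpl22+/+ libraries: across genes, its log2 CPM (read counts normalized for depth and composition) correlated with theirs at 0.925 and 0.933, against 0.991 between those libraries. In what follows, a gene is called when the quasi-likelihood test of edgeR gave a Benjamini-Hochberg adjusted p under 0.05 over all genes tested and an absolute log2 fold change over 1. Of 8 genes that mark maturing neutrophils, all 8 were called lower in Rpl22-/-, with a summed level of 53713 to 56394 TPM in Rpl22+/+ and 15830 to 22624 TPM in Rpl22-/-. Of 5 genes of neutrophil progenitors, all 5 were called higher, with 2882 to 3761 TPM against 26802 to 31976 TPM. Of 7 genes of sort and myeloid identity 2 were called, both lower, while their summed level was 3527 to 3705 TPM in Rpl22+/+ and 3902 to 4406 TPM in Rpl22-/-. These 2, Itgam (CD11b) and Ly6g (a Gr1 antigen) were present in every library, the lowest value being 18.8 TPM for Ly6g in Rpl22-/- replicate 3. In bulk RNA, fewer cells of a type and less RNA per cell cannot be told apart, and the part of this difference in maturation markers in the results below was not tested.

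The promoters of Alox5 and Ptges, the members that differed most firmly between genotypes, and of Ptgs2, whose level spread widely among the Rpl22-/- libraries, are shown to place these genes. Each line holds the 250 bases before the RefSeq start site, 5′ to 3′ on the gene's strand (build GRCm38.p6). Capitals mark the GC box GGGCGG, the PU.1-type core GAGGAA and the C/EBP site TTGCGCAA, each searched on both strands. None of the 3 motifs contains another.
Alox5, chr6:116461179-116461428, minus strand: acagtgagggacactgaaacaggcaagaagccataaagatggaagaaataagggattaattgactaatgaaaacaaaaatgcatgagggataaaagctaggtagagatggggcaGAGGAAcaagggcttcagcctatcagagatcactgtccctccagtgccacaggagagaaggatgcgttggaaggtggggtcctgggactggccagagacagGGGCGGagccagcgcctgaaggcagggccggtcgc
Ptges, chr2:30903298-30903547, minus strand: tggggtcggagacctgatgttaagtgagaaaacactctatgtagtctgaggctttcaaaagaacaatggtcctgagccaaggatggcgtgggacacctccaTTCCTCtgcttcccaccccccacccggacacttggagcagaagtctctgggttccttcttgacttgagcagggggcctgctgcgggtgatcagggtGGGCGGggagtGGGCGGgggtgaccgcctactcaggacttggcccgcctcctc
Ptgs2, chr1:150099781-150100030, plus strand: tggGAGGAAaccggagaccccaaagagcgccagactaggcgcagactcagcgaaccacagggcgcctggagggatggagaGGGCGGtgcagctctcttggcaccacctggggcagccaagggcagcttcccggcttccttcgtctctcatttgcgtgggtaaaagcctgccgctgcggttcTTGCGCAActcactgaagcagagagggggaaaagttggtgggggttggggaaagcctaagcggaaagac
Of the 10 members, 8 had a promoter in the RefSeq table. GGGCGG was found in 4 of these 8 and in 32.7% of all 32851 promoters over the same length, GAGGAA in 7 of 8 and in 23.3%, and TTGCGCAA in 1 of 8, Ptgs2, and in 0.164%. The Ptges window held the GC box 2 times and the Alox5 window 1 time. These matches describe letters only.

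Of the 10 members, 8 had enough reads to be tested, and 2 of the 8, Alox5 and Ptges, were called, both lower in Rpl22-/-. Of all 16656 genes tested, 17.5% were called, 8.54% lower and 8.93% higher in Rpl22-/-. Alox5ap also passed the adjusted p without the fold, and 3 of 8 members thus passed it at any size, where 27.6% of all genes did. In CPM the groups did not overlap for 3 of the 8 tested members, Alox5, Alox5ap and Ptges, where 46.1% of all genes tested did not overlap. The median log2 fold change of the 8 members was -0.26, beside 0.07 over all genes tested.

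In TPM, which allows levels of different genes to be compared because it is scaled for length, the members ranged from 1245 TPM (Alox5ap in Rpl22+/+ replicate 2) to 0 (Alox12 in 2 libraries and Alox15 in 1). Alox5ap and Lta4h together made up 89.7% to 94.1% of the members' summed TPM in each library. In Rpl22+/+ the mean levels ran from Alox5ap (1188 ± 54.0 TPM; SD, n = 3, as throughout) through Lta4h (653.8 ± 54.2), Alox5 (123.7 ± 1.52), Ptgs1 (57.7 ± 18.8), Ptges (8.63 ± 1.16), Ptgs2 (1.64 ± 1.03), Ltc4s (0.687 ± 0.267) and Alox15 (0.109 ± 0.0537) to Hpgds (0.0698 ± 0.0573) and Alox12 (0.00883 ± 0.00774). Neighbours in this order did not overlap from Alox5ap down to Ptgs2, nor did Ltc4s and Alox15, while Ptgs2 overlapped Ltc4s, Alox15 overlapped Hpgds and Hpgds overlapped Alox12. In Rpl22-/- the levels of Alox5ap and Lta4h overlapped, and Ptgs1 stood above Alox5 in each library, the reverse of Rpl22+/+. The place of Alox5ap above Lta4h in Rpl22+/+ rests on the sum over its short transcripts. Those of 504 and 452 bases were at 354.7 ± 17.3 and 357.4 ± 11.0 TPM there. Its transcript of 1251 bases was at 472.4 ± 30.6 TPM, beside 501.7 ± 20.2 TPM for the Lta4h transcript of 2029 bases. In reads, Lta4h was above Alox5ap in every library.

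**Figure D1:**
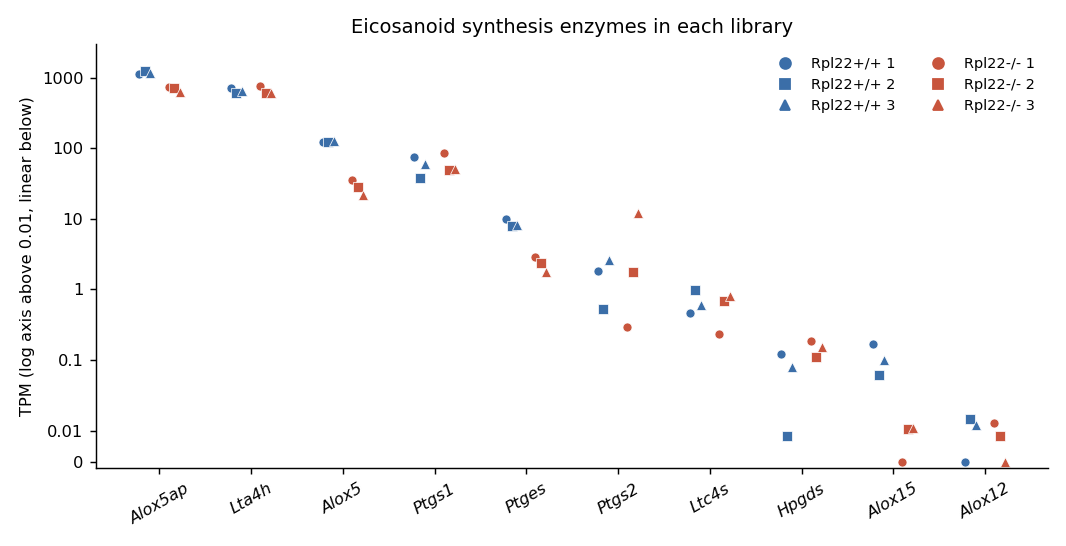
Level of each member in each of the 6 libraries, in TPM on an axis that is logarithmic above 0.01 and linear below it. Blue points are Rpl22+/+ and red points Rpl22-/-, with 1 symbol per replicate number. The groups are apart for Alox5, Alox5ap and Ptges, and for Alox15 at levels of at most 0.167 TPM, while Ptgs2 reaches 12.0 TPM in Rpl22-/- replicate 3 alone.

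Among the 4 leukotriene members, Alox5 was called lower, Alox5ap passed the adjusted p without the fold, and Lta4h and Ltc4s were not called. Alox5 (ENSMUSG00000025701; chromosome 6, 116387038 to 116438139, minus strand, GRCm39) was at 123.7, 122.2 and 125.2 TPM in Rpl22+/+ replicates 1 to 3 and at 35.1, 28.1 and 21.8 TPM in Rpl22-/-. In TPM the Rpl22+/+ libraries were nearly equal, and every Rpl22-/- library lay below all of them. In CPM, the scale of the fit, they were at 237.7, 312.2 and 237.4 against 61.7, 57.3 and 42.8, with Rpl22+/+ replicate 2 above the other Rpl22+/+ libraries and the groups again apart. The log2 fold change of reads was -2.28 ± 0.20 (standard error), a 4.87-fold lower level, with an adjusted p of 0.000527 by edgeR. It was called in each of the 17 other settings of the analysis, with log2 fold changes from -2.39 to -2.11.

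Alox5ap (ENSMUSG00000060063; chromosome 5, 149201577 to 149224963, plus strand), whose product FLAP presents arachidonic acid to 5-lipoxygenase, was at 1138, 1245 and 1180 TPM in Rpl22+/+ and at 743, 721 and 625 TPM in Rpl22-/-. All Rpl22-/- libraries lay below all Rpl22+/+ libraries, by less than for Alox5. The log2 fold change was -0.93 ± 0.19 with an adjusted p of 0.0124 by edgeR. Omitting Rpl22-/- replicate 1 raised the adjusted p to 0.0532 and omitting Rpl22-/- replicate 3 raised it to 0.0608, while without Rpl22+/+ replicate 1 (-1.04) or without Rpl22-/- replicate 2 (-1.01) the gene also passed the fold. An antisense gene overlaps it in the annotation, and the strand setting of the quantification was not given in the sources used here. Within a library, the TPM ratio of Alox5ap to Alox5 was 9.21, 10.2 and 9.42 in Rpl22+/+ and 21.2, 25.6 and 28.7 in Rpl22-/-. The size of this ratio includes the short Alox5ap transcripts. The Alox5ap transcript of 1251 bases was at 472.4 ± 30.6 TPM in Rpl22+/+ and 254.3 ± 10.1 TPM in Rpl22-/-. The Alox5 transcript of 2821 bases was at 100.7 ± 8.43 and 21.1 ± 3.57 TPM. The ratios did not overlap, which gave p = 0.10 in a two-sided exact permutation test, the smallest p that 3 against 3 allows, and 0.125 after adjustment over the 5 ratios examined. That separation restates the larger difference in Alox5 than in Alox5ap and is not a further result.

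Lta4h (ENSMUSG00000015889; chromosome 10, 93289273 to 93320737, plus strand), the hydrolase that makes leukotriene B4, was at 711, 604 and 647 TPM in Rpl22+/+ and at 771, 605 and 603 TPM in Rpl22-/-. The groups overlapped throughout. The log2 fold change was -0.14 ± 0.16, with a 95% interval of -0.52 to 0.23 and an adjusted p of 0.564 by edgeR. The ratio of Lta4h to Alox5 in TPM was 4.94 to 5.75 in Rpl22+/+ and 21.5 to 27.7 in Rpl22-/- (p = 0.10, exact permutation test, two-sided, adjusted p = 0.125). With overlapping Lta4h levels, this ratio restates the lower Alox5 and is not a further result.

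Ltc4s (ENSMUSG00000020377; chromosome 11, 50127288 to 50129443, minus strand), the synthase of the cysteinyl leukotrienes, held only 12, 34 and 17 reads in Rpl22+/+ and 2, 27 and 32 reads in Rpl22-/-. The groups overlapped. The estimate was a log2 fold change of -0.38 ± 0.65 with a 95% interval of -1.92 to 1.16 and an adjusted p of 0.722 by edgeR, wider than the counting error alone (ratio of Rpl22+/+ to Rpl22-/- 1.15, exact 95% interval 0.79 to 1.66). Of 10 marker genes of mast cells and basophils, which are known to make leukotriene C4, 4 of the 7 tested were called lower and Tpsab1 and Mcpt4 were at 0 in every library. Their summed level was 287 to 305 TPM in Rpl22+/+ and 12.1 to 22.8 TPM in Rpl22-/-, most of it in Rpl22+/+ from Hdc (268 to 280 TPM), the histamine-forming enzyme. Of 8 eosinophil genes 1 was called, Siglecf, lower in Rpl22-/-, and their sum was 14.8 to 18.2 TPM against 9.42 to 11.5 TPM.

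The remaining lipoxygenases were near the limit of detection. Alox15 (ENSMUSG00000018924; chromosome 11, 70234978 to 70242857, minus strand), the 12/15-lipoxygenase of macrophages and eosinophils, held 20, 10 and 13 reads in Rpl22+/+ and 0, 2 and 2 reads in Rpl22-/-. Every Rpl22+/+ library was above every Rpl22-/- library, and the 0 in Rpl22-/- replicate 1 allows up to 3 reads, or 0.0802 CPM. Relative to library size the summed reads, 43 against 4, gave a ratio of 11.9 with an exact 95% interval of 4.34 to 45.8, which covers counting error only. The gene did not pass the filter on low counts, so it has no test among the members. It entered and was called where no filter was used (log2 fold change -3.51), with DESeq2 (-3.71) and in each of the 6 fits that left out a library (-3.78 to -3.18), but it could pass that filter only through its Rpl22+/+ level and those calls are not support.

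Alox12, the platelet lipoxygenase, which the study followed in hematopoietic stem cells, held 0, 3 and 2 reads in Rpl22+/+ and 1, 2 and 0 reads in Rpl22-/-. The totals, 5 against 3 reads, gave a ratio of 1.85 with an exact 95% interval of 0.36 to 11.9, so that no difference was detectable at this depth. Of 10 genes of platelets and megakaryocytes 5 were tested and 0 called by edgeR (1 had an unadjusted p under 0.05, and DESeq2 and limma-voom called 0, limma on log2(TPM + 0.1) 1), with a summed level of 5.63 to 8.51 TPM in Rpl22+/+ and 6.75 to 8.94 TPM in Rpl22-/-. Pf4, a defining platelet gene, was at most 0.132 TPM.

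Among the 4 prostanoid members, Ptges was called lower and the cyclooxygenases Ptgs1 and Ptgs2 and the synthase Hpgds were not called. Ptges (ENSMUSG00000050737; chromosome 2, 30779483 to 30819875, minus strand), the inducible prostaglandin E synthase, was at 9.96, 7.81 and 8.13 TPM in Rpl22+/+ and at 2.93, 2.35 and 1.77 TPM in Rpl22-/-. The lowest Rpl22+/+ library was above the highest Rpl22-/- library. The log2 fold change was -2.06 ± 0.17, a 4.16-fold lower level, with an adjusted p of 0.000426 by edgeR. It was called in each of the 17 other settings, from -2.17 to -1.53. A pseudogene on the same strand overlaps the gene in the annotation.

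Ptgs1 (ENSMUSG00000047250; chromosome 2, 36120438 to 36142284, plus strand), cyclooxygenase-1, was at 75.2, 37.8 and 59.9 TPM in Rpl22+/+ and at 84.9, 49.4 and 51.3 TPM in Rpl22-/-. The spread within each genotype was wider than the distance between them. By edgeR the log2 fold change was 0.05 ± 0.19, with a 95% interval of -0.41 to 0.51 and an adjusted p of 0.874. The TPM ratio of Ptgs1 to Ptges was 4.84 to 7.55 in Rpl22+/+ and 21.0 to 29.0 in Rpl22-/- (p = 0.10, exact permutation test, two-sided, adjusted p = 0.125). With overlapping Ptgs1 levels, this ratio restates the lower Ptges and is not a further result.

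Ptgs2 (ENSMUSG00000032487; chromosome 1, 149975782 to 149983978, plus strand), cyclooxygenase-2, was at 1.80, 0.538 and 2.58 TPM in Rpl22+/+ and at 0.298, 1.77 and 12.0 TPM in Rpl22-/-. Rpl22-/- replicate 3 was the highest of the 6 libraries and Rpl22-/- replicate 1 the lowest, so that 1 genotype held both ends of the range. In reads the log2 fold change was 1.47 ± 1.16, with a 95% interval of -1.30 to 4.23 and an adjusted p of 0.41 by edgeR. It was -0.66 without Rpl22-/- replicate 3, and its direction rests on that library. The TPM ratio of Ptgs1 to Ptgs2 overlapped between genotypes, at 23.2 to 70.3 in Rpl22+/+ and 4.29 to 285 in Rpl22-/- (p = 0.90, exact permutation test, two-sided; adjusted p = 0.90).

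Hpgds (ENSMUSG00000029919; chromosome 6, 65094277 to 65121892, minus strand), the hematopoietic prostaglandin D synthase, held 22, 2 and 16 reads in Rpl22+/+ and 17, 31 and 43 reads in Rpl22-/-. Rpl22+/+ replicate 2 was far below the rest, and in CPM the groups overlapped by Rpl22+/+ replicate 1 (0.313) and Rpl22-/- replicate 2 (0.310). Reads gave a log2 fold change of 1.06 ± 0.72, with a 95% interval of -0.65 to 2.78 and an adjusted p of 0.332 by edgeR. Summed reads, 40 against 91, gave a ratio of Rpl22-/- to Rpl22+/+ of 2.05 with an exact 95% interval of 1.40 to 3.05 for counting error only, so that the spread between libraries and not depth set the width of the edgeR interval. Omitting Rpl22+/+ replicate 2 gave 0.50 and omitting Rpl22+/+ replicate 1 gave 1.67.

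**Figure D2:**
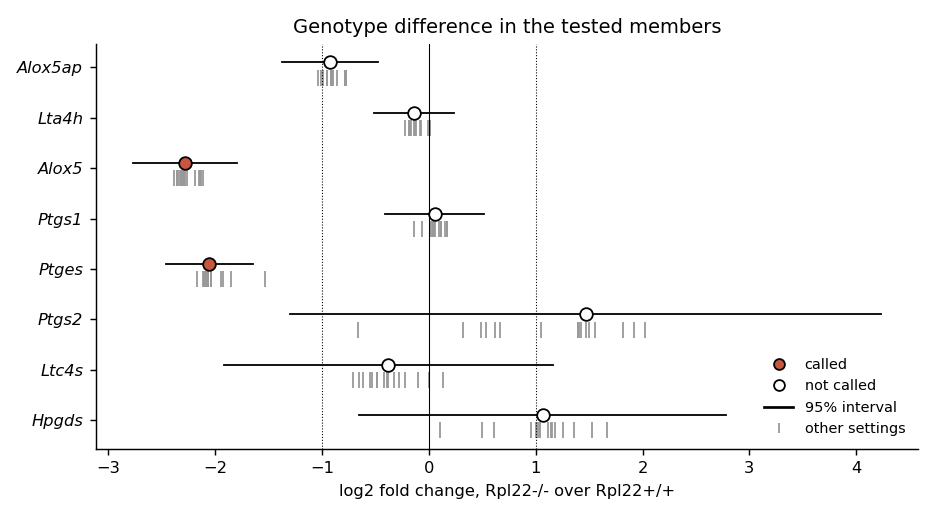
Log2 fold change of Rpl22-/- over Rpl22+/+ for the 8 tested members, in the order of their levels. Circles are the edgeR estimates (red where called), black lines their 95% intervals, gray ticks the values under the other settings, and dotted lines a log2 fold change of 1 in each direction. Alox5 and Ptges lie beyond -1 with their whole intervals, Alox5ap lies at -0.93, and the intervals of the other 5 members include 0.

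At the level of transcripts, 45 annotated transcripts of the 10 members were present in the files, 41 had any read, 28 were tested and 7 were called, all 7 lower, where 6.39% of all 57835 transcripts tested were called. Of the 7, 1, a minor retained-intron Alox5 transcript of 546 bases with 9, 24 and 20 reads in Rpl22+/+ and 0 in each Rpl22-/- library, could pass the filter only through Rpl22+/+, was not called with no filter (adjusted p = 0.0736 by edgeR) or by limma-voom (0.0644), and is not support. Another, a Ptges transcript of 543 bases, held 58, 65 and 69 reads in Rpl22+/+ and 11, 13 and 9 in Rpl22-/-. This Ptges transcript could not pass the filter by its Rpl22-/- reads alone, and its call is not support either. Limma-voom called it (adjusted p = 0.0251). It was not called by edgeR with no filter (adjusted p = 0.114) or in any of the 6 fits that left out a library. For Alox5 the full-length protein-coding transcript of 2821 bases carried 78.1% to 92.7% of the gene's reads in each library. It was at 97.5, 110.3 and 94.4 TPM in Rpl22+/+ and at 24.8, 20.9 and 17.7 TPM in Rpl22-/-, a log2 fold change of -2.44 ± 0.24 (adjusted p = 0.00527 by edgeR). For Ptges the protein-coding transcript of 3647 bases carried 84.6% to 93.3% of the reads and had a log2 fold change of -2.12 ± 0.19 (adjusted p = 0.00385). For Alox5ap the main transcript of 1251 bases carried 65.0% to 71.4% of the reads and had a log2 fold change of -1.06 ± 0.23 (adjusted p = 0.0466). The count of 7 was not steady: with the replicate number as a block it was 4, namely the main transcripts of Alox5 and Ptges and 2 Alox5ap transcripts, and it was 4 without Rpl22+/+ replicate 2, 1 without Rpl22-/- replicate 1 and 2 without each of the other 4 libraries. The main Ptges transcript was called in all of these fits, and the main Alox5 transcript in all but those without Rpl22-/- replicate 1 or replicate 3. The main Alox5ap transcript was called in none of the 6 fits that left out a library (adjusted p from 0.0548 to 0.244 by edgeR), nor with no filter on low counts (adjusted p = 0.089 by edgeR).

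Around the members, the other genes of the pathway moved in both directions. Of 72 listed genes, 63 were tested, 8 were called higher and 11 lower, and 27 passed the adjusted p at any size, with a median log2 fold change of -0.28. These counts include Pla2g5 (lower) and Ptger3 (higher), which could pass the filter on low counts only through the genotype where they were high. The calls of Pla2g5 and Ptger3 are not support. Over all genes tested, 17.5% were called, 27.6% passed the adjusted p at any size and the median was 0.07. Without Rpl22+/+ replicate 2, 21 were called (9 higher and 12 lower), of which 18 were among the 19 called with all libraries.

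At the supply of arachidonic acid, 2 of the 11 tested phospholipases were called higher and 1 lower. Pla2g15, a lysosomal phospholipase, was at 25.2 ± 2.87 TPM in Rpl22+/+ and 60.9 ± 5.76 TPM in Rpl22-/- (log2 fold change 1.15, adjusted p = 0.00963 by edgeR), and Plaat3, a phospholipase and acyltransferase of membranes, was at 2.83 ± 0.386 and 6.77 ± 0.394 TPM (1.12, adjusted p = 0.0161 by edgeR). Pla2g5, a secreted enzyme, was called lower on reads (-2.05, adjusted p = 0.0273 by edgeR) at 0.11 ± 0.0271 and 0.0995 ± 0.0853 TPM, where the groups overlapped, and it was not tested without Rpl22+/+ replicate 2. It held 9, 20 and 12 reads in Rpl22+/+ and 1, 5 and 5 reads in Rpl22-/-. Pla2g5 could pass the filter on low counts only through its Rpl22+/+ level, and this call is not support. Pla2g4a, the cytosolic phospholipase that serves leukotriene synthesis, was at 9.21 ± 4.84 against 9.24 ± 2.14 TPM, with a log2 fold change of -0.04 and a 95% interval of -0.91 to 0.83. Its low Rpl22+/+ value was replicate 2 (3.63 TPM against 12.3 and 11.7), without which the log2 fold change was -0.42 ± 0.14 (adjusted p = 0.0545 by edgeR). Of the 7 genes that activate arachidonic acid or return it to membranes, 2 were called, both lower. Lpcat2, which also makes platelet-activating factor, was at 35.6 ± 3.15 against 8.07 ± 2.22 TPM (-2.41), and Mboat7, which places arachidonate in phosphatidylinositol, at 108.6 ± 9.13 against 44.9 ± 4.71 TPM (-1.22).

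Downstream of 5-lipoxygenase, 4 of 13 tested genes of leukotriene conversion, export and breakdown were called lower and 1 higher. Cyp4f18, which inactivates leukotriene B4 in neutrophils, was at 89.96, 106.6 and 99.3 TPM in Rpl22+/+ and at 7.91, 12.8 and 11.1 TPM in Rpl22-/-, a log2 fold change of -3.33 ± 0.28 (adjusted p = 0.000444 by edgeR). Its related enzyme Cyp4f13 was at 27.0 ± 9.55 against 15.3 ± 2.91 TPM (-1.02 on reads, with overlapping groups in TPM), and Dpep2, a dipeptidase that turns leukotriene D4 into E4, at 10.04 ± 0.894 against 4.85 ± 0.481 TPM (-1.13). Mgst2, a microsomal transferase that can make leukotriene C4, was higher, at 56.4 ± 11.3 against 150.8 ± 22.2 TPM (1.36, adjusted p = 0.00503 by edgeR). Of the 7 tested receptors for leukotrienes and resolving lipids, 3 were called, all lower. Ltb4r1, the high-affinity leukotriene B4 receptor, was at 199, 226 and 184 TPM in Rpl22+/+ and at 89.7, 76.5 and 61.8 TPM in Rpl22-/- (-1.54 ± 0.23, adjusted p = 0.00368 by edgeR). Fpr2, a receptor for lipoxin A4 and formyl peptides, was at 395 ± 90.6 against 173 ± 39.4 TPM (-1.26), and Cysltr1, a receptor for cysteinyl leukotrienes, at 2.66 ± 1.76 against 0.272 ± 0.213 TPM (-3.68).

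**Figure D3:**
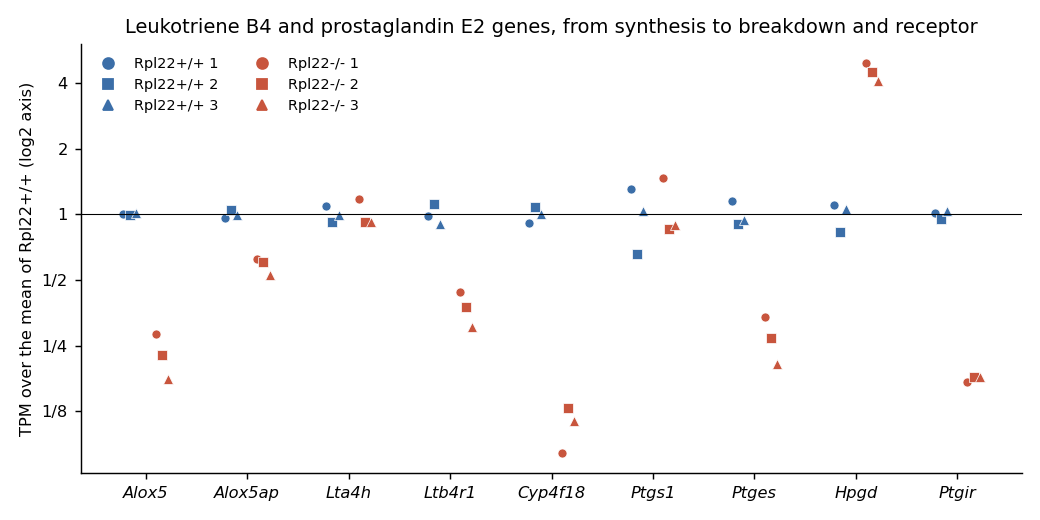
TPM of 9 genes in each library divided by the gene's mean over the Rpl22+/+ libraries, on a log2 axis. The first 5 genes belong to leukotriene B4 and the last 4 to prostanoids, with Hpgd for breakdown and Ptgir for a receptor, and these 9 were picked after their values were seen. Lta4h and Ptgs1 scatter about 1, Alox5, Alox5ap, Ltb4r1, Cyp4f18, Ptges and Ptgir lie below 1 in each Rpl22-/- library, and Hpgd lies above 4.

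On the prostanoid side, the gene with the smallest adjusted p among the 8 listed genes that rose was Hpgd, the dehydrogenase that inactivates prostaglandin E2. It was at 130.8, 98.4 and 125.7 TPM in Rpl22+/+ and at 581, 530 and 485 TPM in Rpl22-/-, a log2 fold change of 2.08 ± 0.14 (adjusted p = 0.000168 by edgeR). It was the only called gene of the 4 for prostaglandin uptake and breakdown. The TPM ratio of Hpgd to Ptges was 12.6 to 15.5 in Rpl22+/+ and 198 to 274 in Rpl22-/-, which restates the opposite changes of the 2 genes and is not a further result. Of the 6 tested further prostanoid synthases, 2 were called, both higher: Cbr1, a carbonyl reductase that can reduce prostaglandin E2, at 3.59 ± 0.0397 against 11.9 ± 1.04 TPM (1.59), and Prxl2b, a prostaglandin F synthase, at 1.93 ± 0.0453 against 7.09 ± 0.878 TPM (1.79). The other prostaglandin E synthase genes stood above Ptges in level. Ptges3 was at 62.7 ± 6.21 against 97.96 ± 1.74 TPM, higher with an adjusted p of 0.0169 by edgeR and without the fold (0.56 ± 0.12), and Ptges2 was at 15.4 ± 0.597 against 17.9 ± 3.29 TPM, with a log2 fold change of 0.07 and a 95% interval of -0.43 to 0.57.

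Of the 7 tested prostanoid receptors, 2 were called higher and 1 lower. Ptgir, the prostacyclin receptor, was at 11.6 ± 0.476 TPM in Rpl22+/+ and 2.05 ± 0.0601 TPM in Rpl22-/- (-2.60 ± 0.16, adjusted p = 0.000133 by edgeR). Ptger3, a receptor for prostaglandin E2, was at 0.0347 ± 0.0165 against 0.857 ± 0.219 TPM (4.34), from 15 against 327 reads in all. Ptger3 could pass the filter on low counts only through its Rpl22-/- level, and its call is not support. Tbxa2r, the thromboxane receptor, was at 0.803 ± 0.122 against 1.90 ± 0.224 TPM (1.13). None of the 2 tested other lipoxygenases, the 3 epoxide hydrolases and the 3 tested lipid-activated nuclear receptors was called by edgeR (6 of the 8 had an unadjusted p under 0.05, limma-voom called 0 and DESeq2 1), although 1 of the epoxide hydrolases and 1 of the nuclear receptors passed the adjusted p without the fold. Without Rpl22+/+ replicate 2, the epoxide hydrolases Ephx2 (1.36, adjusted p = 0.0478 by edgeR) and Ephx3 (-2.02, adjusted p = 0.047 by edgeR) were called, in opposite directions.

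**Figure D4:**
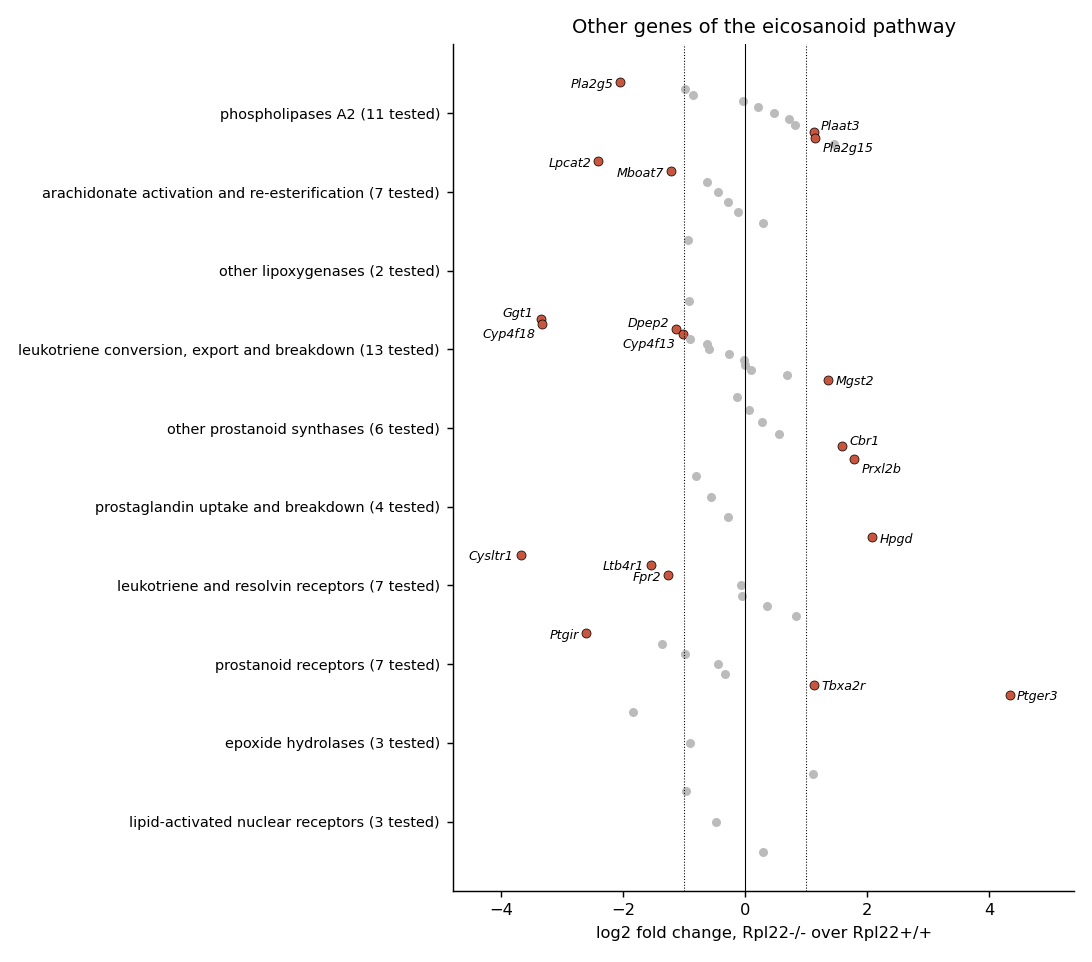
Log2 fold change of Rpl22-/- over Rpl22+/+ for the 63 tested genes of the 10 pathway lists, by list. Red points are called genes, with their names, gray points genes that were not called, and dotted lines a log2 fold change of 1 in each direction. Called genes lie on both sides, 11 lower and 8 higher, among them Pla2g5 and Ptger3, whose calls are not support.

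The sort was for CD11b+Gr1+ cells, a gate that should remove lymphoid and erythroid cells, and markers of these and other cells were read beside the members. B cell genes were detected and not called (0 of 5 by edgeR, where 1 had an unadjusted p under 0.05 and DESeq2 and limma-voom called 0, and 1, Pax5, passed the adjusted p without the fold), at 395 to 502 TPM in Rpl22+/+ and 284 to 388 TPM in Rpl22-/- in sum. T cell genes were lower (4 of 5 called) at 65.1 to 82.9 against 31.2 to 45.7 TPM, and erythroid genes higher (6 of 7) at 248 to 286 against 1673 to 3058 TPM. Monocyte and macrophage genes were split, with 3 of 7 tested called lower and 2 higher, at 692 to 851 against 485 to 586 TPM. Of 4 tested genes of stroma and endothelium 1 was called lower, at 23.6 to 26.5 against 33.5 to 39.1 TPM in sum over the 7 listed. The part of each in the members' values was not tested.

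Over the 6 libraries, the tested genes outside the lists whose log2 CPM followed Alox5 most closely were Arrb2, Rnf144a and Stradb (Pearson r of 0.999 each), and Cldn1 and Ifitm6 were among those nearest to Ptges (0.999 each). Among 11738 genes searched, 178 had an r above 0.99 with Alox5 and 161 with Ptges. The 6 points come from 2 genotypes, and these correlations are a description.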

How the data were processed

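RNA of CD11b+Gr1+ splenocytes was measured in 3 Rpl22+/+ and 3 Rpl22-/- libraries, grouped by the labels. The authors made poly(A) stranded paired-end libraries, used Trimmomatic for trimming and Salmon for transcript abundance (GRCm39 is named in the submitters' processing notes; versions, transcript set and strand setting were not given in the sources used here). The authors deposited estimated counts and TPM per transcript and library. A further deposited table, of the authors' own comparison, gave gene positions here, and its fold changes, scores and p-values were not used.

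Transcripts were matched to genes by identifier with GENCODE vM21 (49.2% of 276623 transcripts, holding 98.0% to 98.1% of the reads), summed and rounded. Genes were tested with edgeR 4.0.16 in R 4.3.3 (quasi-likelihood F) with TMM scaling, filterByExpr and genotype as the only term, on 16656 genes. Standard errors and 95% intervals are those implied by F. It was tested on simulated data. Depths were 35828500 to 102866127 reads, without molecular identifiers. Intervals on reads cover counting error only, and a count of 0 allows 3 reads. All pairs of libraries differed by more than sampling noise (smallest chi-square per degree of freedom 21.0). Deviations from the group means correlated between libraries of the same replicate number at 0.57, 0.71 and 0.13, each over 0.1, so a fit with the number as a block was read as paired. The labels do not say what a number shares, and Rpl22+/+ replicate 3 correlated more with Rpl22-/- replicate 1 (0.43).

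Alternatives were other scalings, filters and pseudocounts (log2(TPM + 1), log2(TPM + 0.1)), DESeq2 1.42.0, limma 3.58.1, the block, a GC correction and leaving out each library. Named are all members, of each pathway list up to 4 called genes of highest mean TPM, marker sums and defining markers at 0, and the 3 genes most like each called member (1 gene that this rule names is not reported here). Genes named outside that rule, chosen after their values were seen, are Pla2g4a, Itgam, Ly6g, Hdc, Siglecf, Pf4, Pax5, Ptges2, Ptges3, Ephx2 and Ephx3. Of the listed genes, 3 were matched by an older symbol. The members and lists were chosen with earlier results of these data known. Alox12 has no position in the table used. Figures were drawn with matplotlib 3.10.9.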

Additional observations from a re-analysis of the deposited data

How the results depend on the processing

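Over all genes, 2911 were called, and 1605 with limma on log2(TPM + 1), where low genes have smaller fold changes by construction. Leaving out 1 library gave 2218 to 3431. The members called numbered 2, and 2 to 3 under the alternatives that keep all libraries. Leaving out 1 library gave 3 to 4, since Alox15 then entered the test in each such fit, and Alox5ap passed the fold when Rpl22+/+ replicate 1 or Rpl22-/- replicate 2 was omitted. The called transcripts of members numbered 7, and 3 with no filter on low counts, 4 with the replicate block and 1 to 4 when 1 library was left out. The replicate block changed no other call among the members: Alox5 and Ptges remained called and Alox5ap stayed under the fold. With no composition factor the median over all genes tested (log2 fold change) moved from 0.07 to 0.19, and the log2 fold changes of Lta4h and Ptgs1, -0.01 and 0.17 there, are to be read against it. Lta4h, Ltc4s, Ptgs1 and Ptgs2, which were not called, had another sign than in the reported fit in 2, 2, 2 and 1 of the alternatives, and Hpgds in 0. Depth limits Alox12 and Alox15, each with 20 reads or fewer in every library, while for Ltc4s and Hpgds the spread between libraries exceeds counting error.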
